A study of Triticum aestivum with 2 samples.

Results

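Homoeologous group 6 of common wheat comprises chromosomes 6A, 6B and 6D, which descend from the same ancestral chromosome and were brought together in 1 nucleus by hybridisation. The MNase hypersensitive sites (MHSs) placed on these chromosomes in the deposited peak lists of seedling and spikelet are described here. All peaks whose sequence name starts with chr6A, chr6B or chr6D were taken. This rule uses no measured value, but it was set with earlier results of these data known. In the seedling list, 35577 of 289446 MHSs were on these chromosomes (12.3%), and in the spikelet list 33903 of 277119 (12.2%). Both lists came from wild-type plants of the cultivar Chinese Spring, with formaldehyde cross-linked seedlings of 10 days by the sample labels and cross-linked spikelets at the booting stage. The material was whole tissue, so an MHS cannot be assigned to a cell type, and fewer cells with open DNA cannot be told apart from weaker opening in all cells. The authors merged 2 biological replicates per tissue before calling peaks, and each tissue therefore has 1 list. No test was made between tissues or homoeologs, and the 95% intervals below cover counting error only.

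An MHS is a place where a light digestion with micrococcal nuclease (MNase) released short DNA fragments, because the DNA was not wrapped in a nucleosome and was open to the enzyme. Such sites are typical of promoters and distal regulatory elements, where transcription factors bind. Wheat chromosomes have gene-rich ends that recombine often, and large gene-poor regions around the centromere that are filled with transposable elements. The reference sequences run from the end of the short arm to the end of the long arm. The group 6 chromosomes carry the α-gliadin seed storage protein genes on their short arms and α-amylase genes on their long arms, and 6B also carries a major nucleolus organiser region. The MHSs were not assigned to these or other genes here.

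The lists cut each chromosome into 2 parts. The second part was placed after the first, with the last MHS of either list taken as the end of a part, at 452.3 Mb on 6A, 452.1 Mb on 6B and 450.5 Mb on 6D. This gave lengths of 617.9 Mb for 6A, 721.0 Mb for 6B and 473.6 Mb for 6D. The pileup of reads at each summit and the local background were recovered from the authors' fold enrichment and p-value, and the recovered p differed by less than 0.001 on the −log10 scale for 100% of the group 6 MHSs. The methods name no control library, so the local background would hold the reads of the MHSs themselves. The group 6 MHSs had a median pileup of 26 reads for the seedling list and 31 for the spikelet list, both equal to the median of the whole list. With an assumed read extension of 200 bp, the lowest background would need 184.8 M reads for the seedling list and 182.3 M for that of the spikelet. Among the group 6 MHSs, a q above 0.01 was given to 795 of the seedling list and 149 of the spikelet list.

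Chromosome 6D, the shortest homoeolog, had more MHSs for its length than 6A and 6B. In the seedling list, 6A had 11363 MHSs, 6B had 13732 and 6D had 10482. In the spikelet list, the numbers were 10846, 12928 and 10129. The longest homoeolog, 6B, was 1.52 times as long as the shortest, 6D, but had 1.31 times as many seedling and 1.28 times as many spikelet MHSs. The density was 18.4 seedling MHSs per Mb on 6A (95% Poisson interval 18.1 to 18.7), 19.0 on 6B (18.7 to 19.4) and 22.1 on 6D (21.7 to 22.6). In the spikelet it was 17.6 (17.2 to 17.9), 17.9 (17.6 to 18.2) and 21.4 (20.97 to 21.8). The shortest homoeolog was thus the densest, while 6A, shorter than 6B, was not denser than it. The density of 6D was 1.20 times that of 6A in the seedling (1.17 to 1.24) and 1.22 times in the spikelet (1.19 to 1.25). For 6B the ratio to 6A was 1.04 in the seedling (1.01 to 1.06), and in the spikelet it was 1.02 with an interval that held 1 (0.996 to 1.05).

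**Figure D1:**
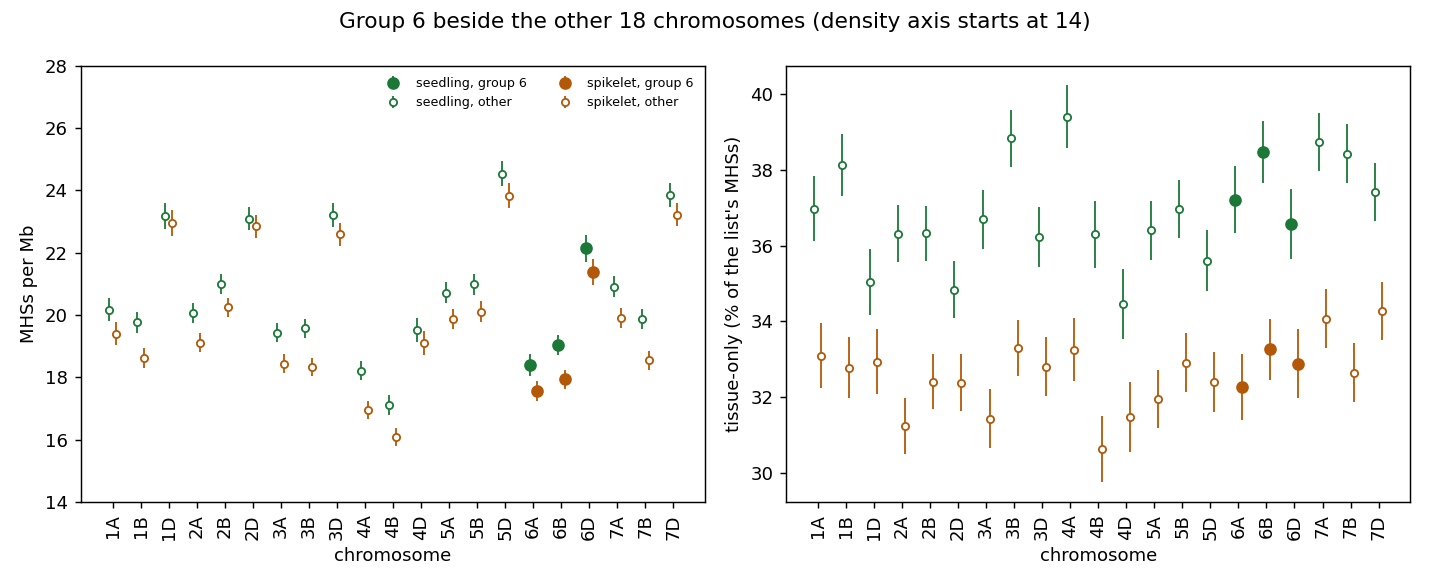
Left, MHSs per Mb of each of the 21 chromosomes in the seedling (green) and spikelet (orange) lists, with 95% Poisson intervals and an axis that starts at 14. Right, the share of each list's MHSs that did not overlap the other list, with 95% Wilson intervals. Filled points are 6A, 6B and 6D, whose seedling densities were 18.4, 19.0 and 22.1 per Mb.

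Each group 6 chromosome was sixth of 7 in density within its own subgenome, in both lists. The other 6 A chromosomes had between 18.2 and 20.9 seedling MHSs per Mb, the other B chromosomes between 17.1 and 20.99, and the other D chromosomes between 19.5 and 24.5. The D to A ratio of seedling density in the other 6 groups ranged from 1.07 in group 4 to 1.19 in group 3, below the 1.20 of group 6. In the spikelet list it ranged from 1.13 in group 4 to 1.23 in group 3, on either side of the 1.22 of group 6. These orders are descriptions, and a difference of group 6 from other groups was not tested.

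The MHSs themselves were alike in size and strength on the homoeologs. The median width in the seedling was 353 bp on 6A, 349 bp on 6B and 353 bp on 6D, and in the spikelet 333, 335 and 336 bp. The median fold enrichment over the local background was 4.07, 4.05 and 4.02 for seedling MHSs and 4.47, 4.48 and 4.43 for spikelet MHSs. The quartiles of the fold on 6A were 3.40 and 5.29 in the seedling, so the medians of the homoeologs differed by far less than the MHSs of any 1 of them. MHSs covered 7.58 kb per Mb of 6A, 7.77 kb of 6B and 9.16 kb of 6D in the seedling, and 6.62, 6.77 and 8.25 kb in the spikelet. MHSs of 1 kb or more were more frequent in the seedling, with 282 against 109 on 6A, 310 against 144 on 6B and 259 against 123 on 6D.

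Along all 3 chromosomes the density was high at both ends and fell to a broad minimum near the middle. In 10 Mb bins, the seedling density of 6A ranged from 6.0 to 45.3 MHSs per Mb with a median of 16.0. On 6B it ranged from 7.7 to 47.2 with a median of 17.6, and on 6D from 6.9 to 56.4 with a median of 19.6. The spikelet range was wider at the low side, from 3.4 to 48.7 on 6A, from 3.0 to 43.2 on 6B and from 4.5 to 53.5 on 6D. The richest full bin was the same in both lists on 6A, from 590 to 600 Mb, and on 6D, from 460 to 470 Mb. On 6B it lay from 700 to 710 Mb in the seedling and from 710 to 720 Mb in the spikelet. The profiles of the 2 tissues followed each other closely, with a Pearson r of 0.990 over 61 bins of 6A, 0.972 over 72 bins of 6B and 0.989 over 47 bins of 6D. These correlations are across bins of the same chromosome and describe these lists only.

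**Figure D2:**
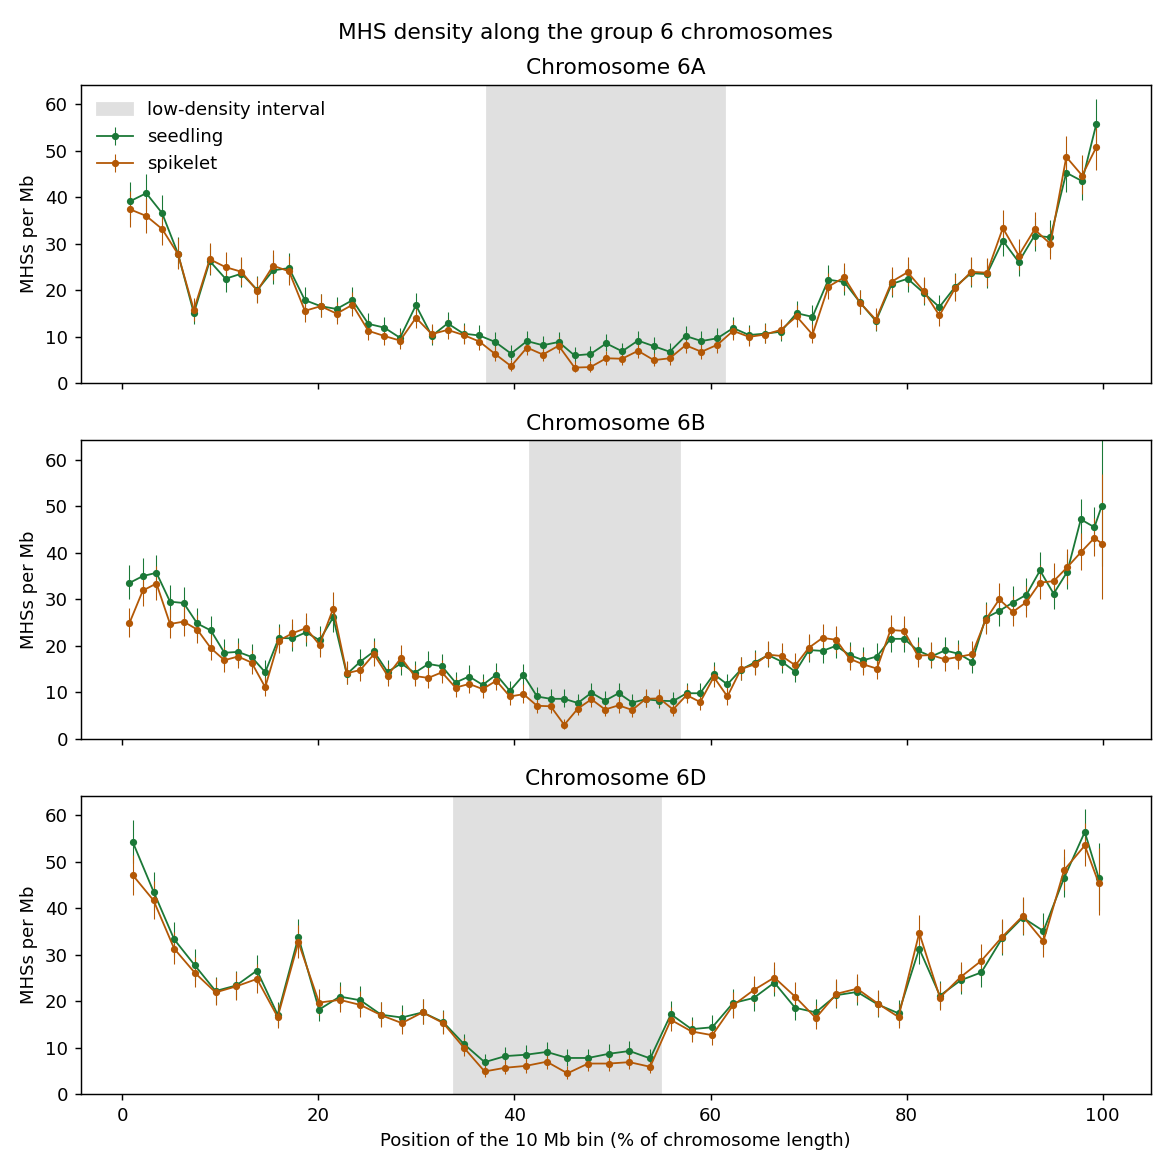
MHSs per Mb in 10 Mb bins of 6A, 6B and 6D against the position of the bin as a percentage of chromosome length, for the seedling (green) and spikelet (orange) lists, with 95% Poisson intervals. The grey band is the low-density interval, where the seedling points lie mostly above the spikelet points, and the last bin of each chromosome is shorter than 10 Mb.

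Placed on a common scale of length in 5% bins, the homoeologs had like profiles. Across the 20 bins, the Pearson r of the seedling densities was 0.984 between 6A and 6B, 0.975 between 6A and 6D, and 0.973 between 6B and 6D. In the spikelet it was 0.972, 0.968 and 0.959. All 3 share the high ends and low middle, which sets much of these values. The density of 6D was above that of 6A in 19 of 20 bins in the seedling and in 18 in the spikelet. The excess was not even along the chromosome. It was largest from 60% to 65% of the length in the seedling, at 1.86 times, and from 55% to 60% in the spikelet, at 2.07 times. From 35% to 40% of the length, 6D was the poorer one, at 0.862 and 0.852 times the density of 6A. Chromosome 6B was above 6A in 13 of 20 bins in both lists, and fell furthest below it from 10% to 15%, at 0.853 times in the seedling and 0.740 times in the spikelet.

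**Figure D3:**
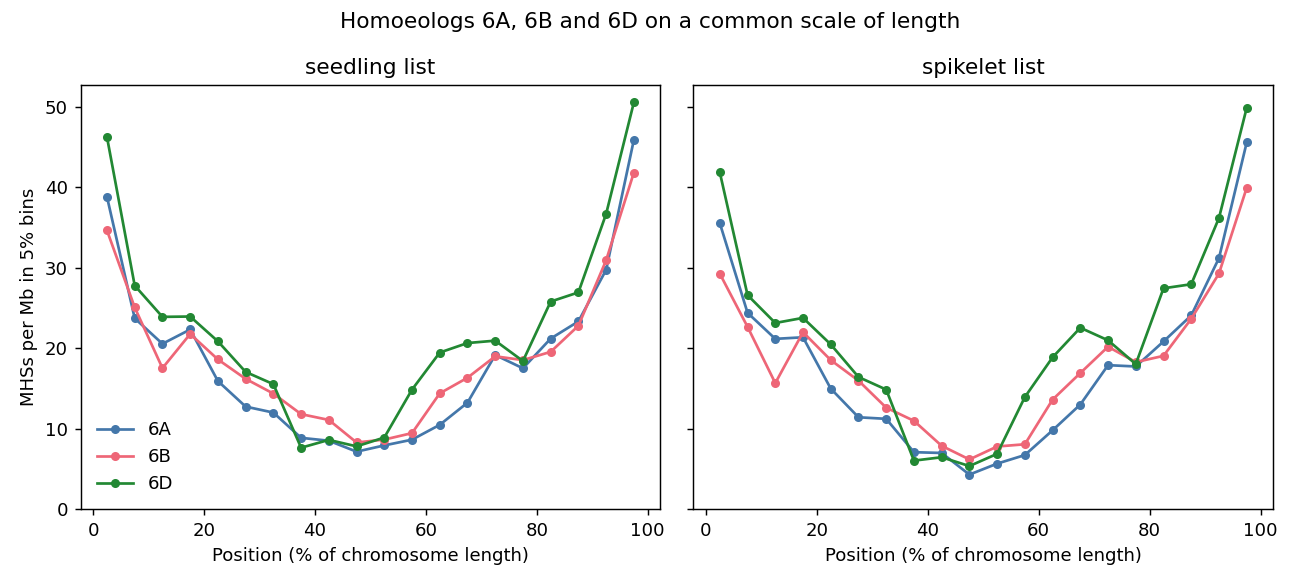
MHSs per Mb in 5% bins of chromosome length for 6A (blue), 6B (red) and 6D (green), in the seedling list (left) and the spikelet list (right). The 3 lines fall together to their minimum between 35% and 50% of the length, and 6D rises first on the side of the chromosome end, to 1.86 times the seedling density of 6A between 60% and 65%.

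The bin with the lowest density lay at 280 to 290 Mb of 6A in both lists, with 60 seedling MHSs (6.0 per Mb, 4.58 to 7.72) and 34 spikelet MHSs (3.4 per Mb, 2.35 to 4.75). On 6B it lay at 330 to 340 Mb in the seedling, with 77 MHSs (7.7 per Mb, 6.08 to 9.62), and next to it at 320 to 330 Mb in the spikelet, with 30 MHSs (3.0 per Mb, 2.02 to 4.28). On 6D it lay at 170 to 180 Mb in the seedling, with 69 MHSs (6.9 per Mb, 5.37 to 8.73), and at 210 to 220 Mb in the spikelet, with 45 MHSs (4.5 per Mb, 3.28 to 6.02). On 6D several bins were close to the minimum, and with bins shifted by 5 Mb the lowest seedling bin started at 225 Mb and the lowest spikelet bin at 175 Mb. The position of the single lowest bin of 6D is thus not fixed by these lists.

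The neighbouring bins that stayed under 50% of the mean density of the chromosome formed a low-density interval around the minimum. On 6D it ran from 160 to 260 Mb in both lists. On 6A it ran from 230 to 320 Mb in the seedling and from 230 to 380 Mb in the spikelet, and on 6B from 300 to 340 Mb and from 300 to 410 Mb. These seedling ends hung on single bins. On 6A the run stopped at a bin with 9.2 MHSs per Mb, just over the limit of 9.196. Within the spikelet interval, 3 further seedling bins of 6A and 5 of 6B were under the seedling limit. The wider interval of the 2 lists, which on each chromosome contained the narrower one, was used for both below. It took up 24.3% of the length of 6A, 15.3% of 6B and 21.1% of 6D, and its centre lay at 49.4%, 49.2% and 44.3% of the length. The interval of the seedling list alone was centred at 44.5%, 44.4% and 44.3%, so the homoeologs differed in this position only with the wider interval. The interval of 6D had a sharp edge on its right side, where the seedling density rose from 7.7 to 17.2 MHSs per Mb and the spikelet density from 5.9 to 16.0 between neighbouring bins. On the other 18 chromosomes the interval found by the same rule had its centre between 25.2% and 49.3% of the length. The position of the centromeres was not used here. Neither was the share of each bin where reads can be placed, for the interval or for the densities above.

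Within the low-density interval the tissues differed more in number than elsewhere. The seedling had 1223 MHSs against 903 in the spikelet on 6A, 945 against 754 on 6B and 848 against 642 on 6D. The ratios were 1.35, 1.25 and 1.32, while outside the interval they were 1.02, 1.05 and 1.02. The ratio was higher inside than outside on all 21 chromosomes, and on the other 18 it ranged from 1.23 to 1.44 inside, so that the values of group 6 lay within this range. The interval was itself set by low MHS numbers in these lists, and on 6A and 6B its extent was that of the spikelet list. The ratio inside is therefore not independent of the rule, and how much the rule added to it was not tested. On 6D both lists gave the same interval. Overlap is mutual and mostly 1 to 1, so the overlapping MHSs of both lists are near equal in number by definition. A difference in number therefore falls on the MHSs found in 1 tissue only. On 6A the interval had 584 seedling and 609 spikelet MHSs that overlapped the other list by at least 1 bp, but 639 seedling-only and 294 spikelet-only MHSs. On 6B the overlapping MHSs numbered 473 and 480, against 472 seedling-only and 274 spikelet-only ones. On 6D they numbered 398 and 408, against 450 and 234. The excess of the seedling depended on the calling threshold. Up to a q of 1e-05, a setting chosen after seeing the data, the interval of 6A had 678 MHSs in either list, that of 6B 519 seedling against 564 spikelet MHSs and that of 6D 446 against 474. The ratios of 1.00, 0.920 and 0.941 were then at or below 1, but above the 0.841, 0.863 and 0.834 of the rest of each chromosome under the same threshold.

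Over the whole chromosomes, 4229 of the 11363 seedling MHSs of 6A were seedling-only (37.2%, 95% Wilson interval 36.3 to 38.1), 5282 of 13732 on 6B (38.5%, 37.7 to 39.3) and 3833 of 10482 on 6D (36.6%, 35.7 to 37.5). Over all chromosomes the share was 37.0%. The spikelet-only share was 32.3% on 6A (3499 MHSs, 31.4 to 33.1), 33.3% on 6B (4300 MHSs, 32.5 to 34.1) and 32.9% on 6D (3331 MHSs, 32.0 to 33.8), against 32.6% over all chromosomes. The shares of group 6 were close to those of the whole lists. The higher share of the seedling turned with a stricter threshold, and with q up to 1e-05 in both lists the shares on 6A were 25.7% for the seedling and 35.1% for the spikelet. Chromosome 6B had the highest share of the 3 in both lists, but its interval was clear only of that of 6D in the seedling.

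Tissue-only MHSs were weaker and narrower than overlapping ones on each homoeolog. On 6A, the seedling-only MHSs had a median fold of 3.56 and a median pileup of 17 reads, against 4.67 and 33 for the overlapping ones. In the spikelet the values were 3.82 and 24 against 4.99 and 34. The median width was 280 against 412 bp in the seedling and 274 against 368 bp in the spikelet. The corresponding medians on 6B and 6D were close, for example 3.56 against 4.63 in seedling fold on 6B and 3.53 against 4.57 on 6D. The median distance of a seedling-only MHS from the nearest spikelet MHS was 6.22 kb on 6A, 8.00 kb on 6B and 5.78 kb on 6D. That of a spikelet-only MHS from the nearest seedling MHS was 3.15, 3.46 and 2.89 kb.

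The seedling-only share was not even along the chromosomes. It is tied to the ratio of MHS numbers given above, and in the low-density interval also to the rule that set it. The share is thus not a separate result. In the low-density interval it was 52.2% on 6A (49.4 to 55.0), 49.9% on 6B (46.8 to 53.1) and 53.1% on 6D (49.7 to 56.4), against 35.4%, 37.6% and 35.1% in the rest of each chromosome. The spikelet-only share in the same intervals was 32.6%, 36.3% and 36.4%, against 32.2%, 33.1% and 32.6% in the rest. The bin with the highest seedling-only share was 280 to 290 Mb on 6A, with 48 of 60 MHSs (80.0%). On 6B it was 320 to 330 Mb, with 63 of 86 (73.3%), and on 6D 210 to 220 Mb, with 56 of 78 (71.8%). In these bins the median local background of the seedling MHSs was 2.65, 2.74 and 3.07 reads, close to the lowest value of the list at 2.64. The seedling-only share was higher inside the interval than outside on all 21 chromosomes, by 8.82 to 21.1 percentage points on the other 18, and by 16.8 on 6A, 12.3 on 6B and 17.95 on 6D.

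**Figure D4:**
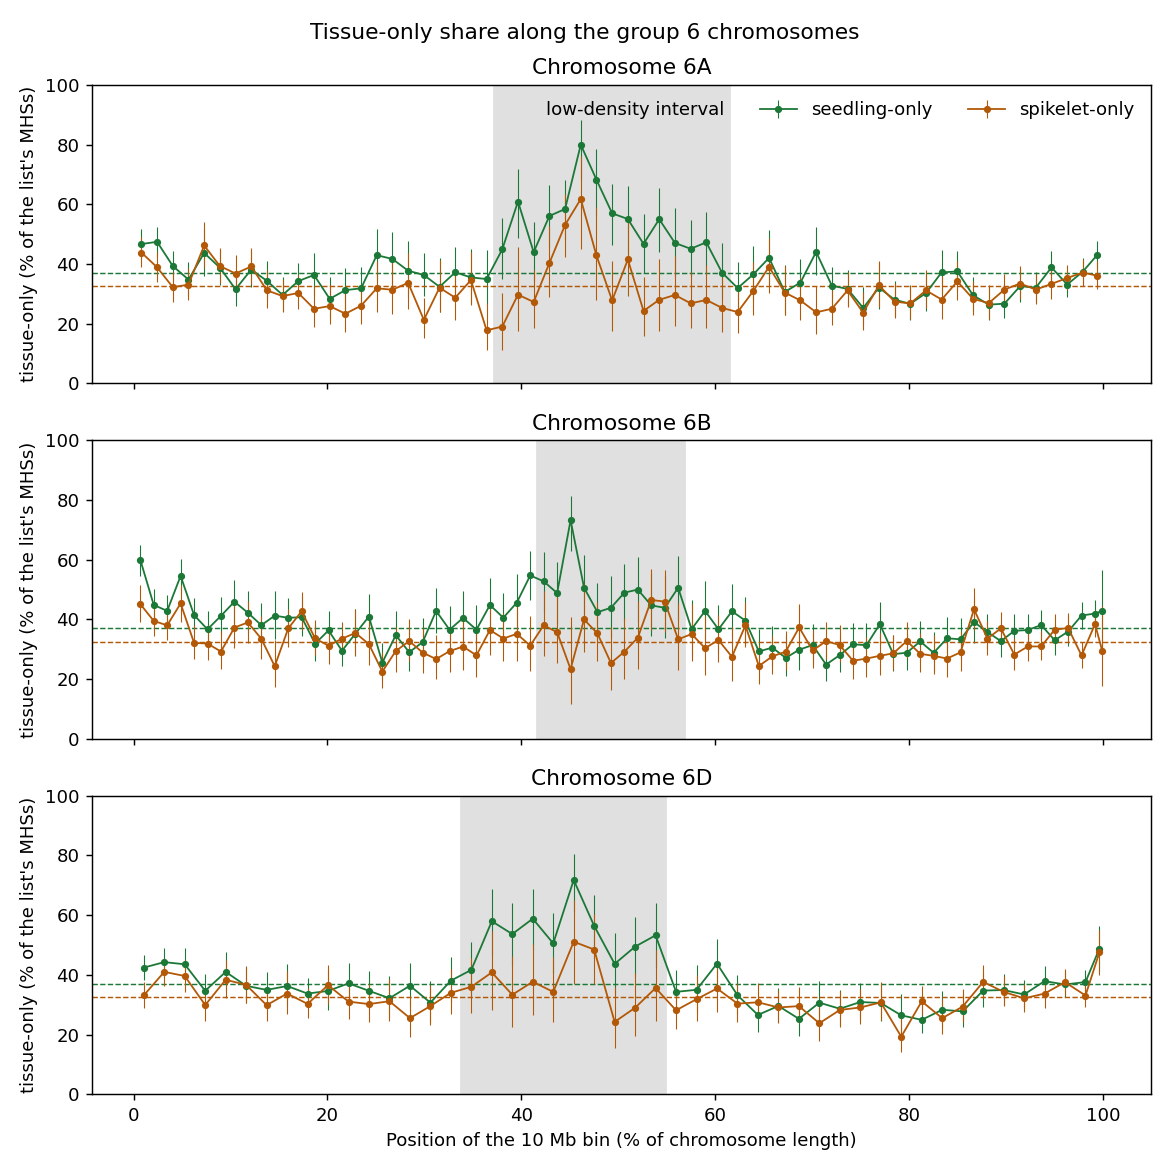
Share of MHSs with no overlap of 1 bp in the other list, in 10 Mb bins of 6A, 6B and 6D, for the seedling (green) and spikelet (orange) lists, with 95% Wilson intervals. Dashed lines are the shares over all chromosomes, 37.0% and 32.6%, and the seedling line rises to 80.0%, 73.3% and 71.8% within the grey low-density interval.

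By classes of reads, the higher seedling-only share in the low-density interval lay among MHSs with few reads. These were more frequent inside and were also more often seedling-only there. MHSs with fewer than 20 reads at the summit made up 47.2% of the seedling MHSs inside the interval of 6A, 44.6% on 6B and 48.5% on 6D, against 28.8%, 30.5% and 27.1% outside. Of those inside, 89.6%, 89.8% and 89.3% were seedling-only, against 71.3%, 73.4% and 71.5% outside. Among MHSs with 20 to 39 reads the seedling-only share was not higher inside, with 26.5% against 28.1% on 6A, 24.8% against 29.04% on 6B and 25.7% against 28.8% on 6D. Among those with 40 reads or more it was lower, with 4 of 200 MHSs inside on 6A (2.00%), 4 of 161 on 6B (2.48%) and 5 of 133 on 6D (3.76%), against 7.89%, 7.07% and 7.96% outside. When seedling MHSs were kept only up to a q of 1e-05, a setting chosen after seeing the data, the seedling-only share was 22.9% inside and 19.6% outside on 6A, 20.8% and 21.3% on 6B, and 24.7% and 20.1% on 6D. The local background was at its lowest value for 18.8% of the seedling MHSs inside the interval of 6A, 17.0% on 6B and 22.1% on 6D, against 7.78%, 8.64% and 7.27% outside. Its part in these shares was not tested.

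**Figure D5:**
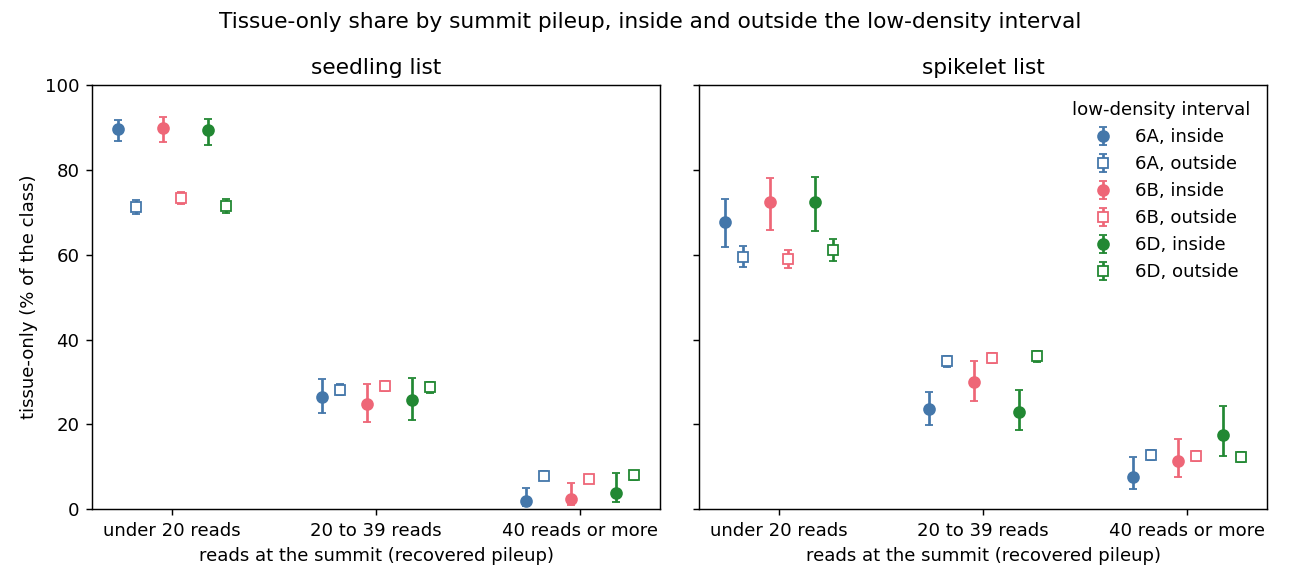
Tissue-only share of the MHSs of 6A (blue), 6B (red) and 6D (green) in 3 classes of reads at the summit, inside (filled) and outside (open) the low-density interval, with 95% Wilson intervals. In the seedling list (left) the share inside exceeds that outside only among MHSs with fewer than 20 reads, where it is 89.6% on 6A against 71.3%.

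Both chromosome ends were rich in MHSs. An even spread would place 20% of the MHSs in the outermost 10% at the start and the end. The observed share in the seedling was 37.6% on 6A (36.7 to 38.5), 34.8% on 6B (34.0 to 35.6) and 36.4% on 6D (35.5 to 37.4). In the spikelet the shares were 38.9% (38.0 to 39.9), 33.8% (33.0 to 34.6) and 36.1% (35.2 to 37.1). The share was higher on 6A than on 6B in both lists, beyond their intervals. The long-arm end was the denser one. On 6A it had 37.8 seedling MHSs per Mb against 31.3 at the short-arm end, on 6B 36.4 against 29.9, and on 6D 43.6 against 37.0. In the spikelet the densities were 38.4 against 30.0 on 6A, 34.6 against 26.0 on 6B, and 43.0 against 34.2 on 6D. The long-arm to short-arm ratio was 1.21, 1.22 and 1.18 for seedling MHSs and 1.28, 1.33 and 1.26 for spikelet MHSs. Within the outermost 10 Mb, 6D had no such difference in the seedling, with 54.2 MHSs per Mb at its start and 53.3 at its end. The last 10 Mb of 6A had 58.4 seedling and 53.6 spikelet MHSs per Mb, the highest values among the 42 chromosome ends in both lists.

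The short-arm end of 6B had more MHSs in the seedling list than in the spikelet list. Its first 10 Mb held 335 seedling MHSs but 248 spikelet MHSs, a ratio of 1.35 that was the highest of the 42 chromosome ends. The ratio was 1.05 at the start of 6A and 1.15 at the start of 6D, and the other 18 chromosomes ranged from 0.898 to 1.32. Of the 335 seedling MHSs, 201 were seedling-only (60.0%, 54.7 to 65.1). In the spikelet, 112 of 248 were spikelet-only (45.2%, 39.1 to 51.4). The shares over all chromosomes were 37.0% and 32.6%, and the 36 ends of the other 18 chromosomes had medians of 44.6% and 39.6% and highest values of 62.1% and 53.3%. Among the 42 ends, this end ranked 2 in the seedling-only and 6 in the spikelet-only share. The seedling list had more MHSs in 8 of the 10 windows of 1 Mb. The difference was greatest from 2 to 3 Mb, with 38 seedling MHSs against 13 in the spikelet, followed by 41 against 23 from 3 to 4 Mb and 33 against 17 from 5 to 6 Mb. From 4 to 5 Mb the order turned, with 35 against 37. In the 3 windows with the greatest difference the median pileup of the seedling MHSs was 19 reads, below the 25 of all seedling MHSs of 6B. Up to a q of 1e-05 the order of the tissues turned, with 179 seedling against 192 spikelet MHSs, a ratio of 0.932 beside 0.864 at the start of 6A and 0.893 at that of 6D, and the seedling-only share was 41.9%. This end was singled out after its values were seen.

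At a scale of 1 Mb, the median window held 15 seedling MHSs on 6A, 17 on 6B and 19 on 6D, and the densest 61, 72 and 47 windows held 25.9%, 23.3% and 24.9% of them. Windows without any seedling MHS were rare, with 1 of 617 on 6A, 2 of 720 on 6B and 2 of 473 on 6D. With windows counted from the start of each part, the densest window of each chromosome was the same in both lists, but this depended on the grid. On 6A it lay from 141 to 142 Mb of part 2, with 83 seedling MHSs (95% Poisson interval 66.1 to 102.9) and 82 spikelet MHSs. On 6B it lay from 256 to 257 Mb of part 2, with 75 (59.0 to 94.0) and 74, a number that the spikelet list also had from 263 to 264 Mb. On 6D it lay from 14 to 15 Mb of part 2, with 94 (76.0 to 115.0) and 79. These windows lay 24.1, 12.4 and 8.57 Mb from the end of their chromosome. With windows shifted by 0.5 Mb the lists differed on each chromosome. The densest window then started at 155.5 Mb of part 2 in the seedling and at 161.5 Mb in the spikelet on 6A, at 223.5 and 263.5 Mb on 6B, and at 13.5 and 18.5 Mb on 6D, with 74 to 90 MHSs. That of 6B in the seedling was then at 93.8% of the length. Up to a q of 1e-05, the windows of 6A also differed, from 156 Mb in the seedling and from 141 Mb in the spikelet.

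On the unshifted grid, 2 of the 3 densest windows of each chromosome were shared by the lists on each homoeolog. The second window of 6A was from 156 to 157 Mb of part 2 in the seedling, with 76 MHSs, and from 150 to 151 Mb in the spikelet, also with 76. The third was from 163 to 164 Mb in the seedling, with 69, and from 156 to 157 Mb in the spikelet, with 71. On 6B the second window was from 263 to 264 Mb of part 2 in both lists, with 71 and 74 MHSs. The third was near the other end in the seedling, from 18 to 19 Mb of part 1 with 64 MHSs, and from 264 to 265 Mb of part 2 in the spikelet with 61. On 6D the second window was from 436 to 437 Mb of part 1 in both lists, with 84 and 78 MHSs, and the third from 446 to 447 Mb of part 1 in the seedling, with 72, and from 6 to 7 Mb of part 1 in the spikelet, with 77. The tissue-only share of these windows ranged from 20.8% to 39.1% in the seedling, against 37.0% over all chromosomes, and from 19.2% to 45.9% in the spikelet, against 32.6%. The median local background was between 1.02 and 1.42 times that of the chromosome. Dense windows thus had a higher local background than the chromosome as a whole. This background would include the reads of their MHSs, so it is not independent of the MHS numbers, and the link was not tested.

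A pair of bins inside the arms stood out from both neighbours by at least 1.5 times in both lists, and were chosen by this rule after the values were seen. On 6D, the bin from 80 to 90 Mb had 33.8 MHSs per Mb in the seedling list and 32.7 in that of the spikelet. The bin before it had 17.1 and 16.6, and the bin after it 18.2 and 19.7. The bins at the nearest relative position had 17.9 and 15.6 on 6A and 21.6 and 22.7 on 6B. On 6A, the bin from 40 to 50 Mb was a dip, with 15.1 and 15.8 MHSs per Mb against 27.9 and 27.8 before it and 26.3 and 26.7 after it. The nearest bins of 6B had 24.8 and 23.5, and those of 6D 27.7 and 26.1. The longest stretch of 6A with no MHS of either list lay in this dip, from 43274712 to 44530762 on part 1, over 1256 kb. On the homoeologs the longest empty stretch was elsewhere. On 6B it ran for 1111 kb from 418657171 to 419768557 on part 1, beyond the low-density interval. On 6D it ran for 1294 kb from 182174666 to 183468178 on part 1, inside the interval. Empty stretches of 300 kb or more numbered 342 on 6A, 362 on 6B and 225 on 6D and took up 24.3%, 21.8% and 20.0% of their length. Only reads with a mapping quality of 20 or more were kept. How far such reads can be placed in these stretches was not tested.

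The strongest MHS of 6B was the same in both lists. It lay from 244184956 to 244185302 on part 1 in the seedling, with a fold of 23.5 and a pileup of 94 reads over a background of 3.04, and from 244184930 to 244185316 in the spikelet, with a fold of 24.5 and a pileup of 144. The strongest seedling MHS of 6A, from 106554648 to 106555266 on part 2, had a fold of 20.1 and overlapped a spikelet MHS with a fold of 17.2. The strongest of 6D, from 256326336 to 256326777 on part 1, lay in the low-density interval, with a fold of 14.5, and overlapped a spikelet MHS with a fold of 13.9. The next 2 seedling MHSs of each chromosome had folds from 14.1 to 19.6. All 9 overlapped a spikelet MHS, with folds between 11.6 and 24.5.

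Of the 9 strongest spikelet MHSs, 4 overlapped a seedling MHS and 5 did not. The first of 6A, from 152468092 to 152468456 on part 2, had a fold of 17.8 and overlapped a seedling MHS with a fold of 11.6. The second, from 108510942 to 108511275 on part 1 with a fold of 17.7, and the third, from 46352330 to 46352674 on part 1 with a fold of 17.6, lay 36.7 and 125.8 kb from the nearest seedling MHS. On 6B, the second, from 449144890 to 449145281 on part 1, had a fold of 24.0 and a pileup of 154 reads, and overlapped a seedling MHS with a fold of 4.17 and 15 reads. The third, from 186706501 to 186706969 on part 2 with a fold of 23.7, lay 47.5 kb from a seedling MHS. On 6D, the first, from 21011426 to 21011891 on part 1, had a fold of 17.7 and overlapped a seedling MHS with a fold of 5.50. The second, from 47524456 to 47524793 on part 1 with a fold of 17.2, and the third, from 208101114 to 208101571 on part 1 with a fold of 17.0, lay 61.2 and 118.8 kb away. Among all MHSs with a fold of 12 or more, 6 of 41 spikelet MHSs on 6A (14.6%, 6.88 to 28.4), 23 of 63 on 6B (36.5%, 25.7 to 48.9) and 12 of 44 on 6D (27.3%, 16.3 to 41.8) were spikelet-only. On the other 18 chromosomes the share was 27.0%, a value inside all 3 intervals. In the seedling, 0 of 39 such MHSs of 6A were seedling-only, 0 of 36 on 6B and 1 of 27 on 6D, and the upper limit of the interval was 8.97% on 6A. On the other 18 chromosomes it was 1 of 534 (0.187%).

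Where exactly 1 seedling MHS overlapped exactly 1 spikelet MHS, the strengths could be set side by side. There were 6809 such pairs on 6A, 8057 on 6B and 6303 on 6D. The spikelet fold was the higher one in 58.8%, 59.7% and 60.4% of the pairs, with a median ratio of spikelet to seedling fold of 1.07, 1.08 and 1.08. The median distance between the summits was 54 bp on 6A and 52 bp on both 6B and 6D. A spikelet fold at least 2 times the seedling fold was seen in 89, 145 and 130 pairs, and the opposite in 43, 61 and 46. The fold is relative to the local background of each list, which is not the same in the tissues.

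Runs of neighbouring MHSs of 1 tissue, with no MHS of the other tissue between them, were longest on 6B in both lists. The seedling run had 19 MHSs from 327078749 to 329506829 on part 1, spread over 2428 kb of the low-density interval, with a median pileup of 13 reads and a median local background of 2.64, the lowest value the list allows. The seedling run of 6A was of the same kind, with 12 MHSs over 921 kb from 283888699 to 284809538 on part 1, a median pileup of 13 and a background of 2.65. The run of 6D had 9 MHSs within 53.2 kb, from 16467791 to 16521004 on part 2 near the chromosome end. The spikelet run of 6B, also in the low-density interval, had 17 MHSs within 195.3 kb, from 394406508 to 394601817 on part 1. Its background had a median of 13.6, which was 2.44 times that of 6B. The spikelet run of 6D, likewise in the low-density interval, was the most compact, with 11 MHSs within 19.9 kb from 168246278 to 168266136 on part 1. Its median background of 26.7 was 4.6 times the median of 6D, and its highest fold was 3.26. The spikelet run of 6A, with 11 MHSs within 68.0 kb from 9635332 to 9703317 on part 1, had a median background of 3.18. In the compact runs the local background would include the reads of the MHSs themselves. Its part in these runs was not tested.

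The widest MHSs were not among the strongest. In the seedling they had 2146 bp on 6A, from 23021555 to 23023700 on part 1, 2461 bp on 6B, from 5314593 to 5317053 on part 1, and 2704 bp on 6D, from 331962995 to 331965698 on part 1. Their folds were 6.68, 5.36 and 5.29, with pileups of 93, 98 and 72 reads, and they overlapped 2, 2 and 3 spikelet MHSs. In the spikelet they had 2068 bp on 6A, from 92030407 to 92032474 on part 2, 2138 bp on 6B, from 154359820 to 154361957 on part 2, and 1998 bp on 6D, from 50769692 to 50771689 on part 1. Each of these overlapped 1 seedling MHS, and their folds were 5.12, 4.90 and 4.14. All 6 lay over a local background between 11.5 and 17.5 reads, above the upper quartile of their chromosome. A wide MHS would add its own reads to this background, so its width and background are not independent.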

How the data were processed

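MNase hypersensitivity sequencing (MH-seq) was done on 2 tissues of Chinese Spring, seedling and spikelet. The study's methods give a seedling age that differs by 1 day from the labels. As the methods state, the authors used fastp for trimming and bowtie2 for mapping to version 1.0 of the IWGSC reference, removed duplicates with Sambamba, kept reads with a mapping quality of 20 or more and called peaks with MACS2 (version 2.0 in the submitters' notes) on 2 merged replicates, with a stated q of 0.01. The authors deposited 1 peak list per tissue. In these, the score was made by the authors' peak caller as the whole part of 10 times −log10 q. The fold was computed by the authors' peak caller as the ratio of pileup to local background at the summit, with 1 added to each. The −log10 p and −log10 q were likewise computed by the peak caller and deposited by the authors.

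All peaks were kept. An MHS was tissue-only when no peak of the other list overlapped it by 1 bp. Bins and windows took MHSs by midpoint, and coordinates are 1-based within parts. Pileup and background were solved from fold and p alone, as a Poisson tail. A read extension of 200 bp and a genome of 14 Gb were used for the read number implied by the lowest background. Overlap, distance and pileup calculations were tested on simulated data. Shares have Wilson intervals and counts exact Poisson intervals. No p-value was computed. The regions named are the 3 MHSs of largest fold and the 3 densest 1 Mb windows per chromosome and list, the lowest 10 Mb bins, the longest empty stretches, the longest runs of 1 tissue and the widest MHSs. The members, lists and rules were chosen with earlier results of these data known. Sequences and gene annotation of the build were not used here. Calculations used scipy 1.17.1, pandas 2.3.3 and numpy 2.4.6 under Python 3.11.15, with plots by matplotlib 3.10.9.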

Additional observations from a re-analysis of the deposited data

How the results depend on the processing

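Of 88 values under alternative settings for 46 results, 41 stayed within their 95% interval or within 1.5 times the count, 44 moved and 3 changed direction. Of these alternatives, 20 were chosen after seeing the data. The density ratios between homoeologs stayed within their intervals with q up to 1e-05 and in base pairs covered. Each tissue had 1 list of merged replicates, so none could be left out. No paired analysis was possible because the replicates were merged before peak calling. The local background differed between regions, which limits comparisons of weak MHSs along a chromosome.

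Keeping q up to 1e-05 left 7531 seedling MHSs on 6A, 8960 on 6B and 6936 on 6D, against 8829, 10347 and 8257 in the spikelet, so that the order of the tissues turned. The tissue-only share with that q in both lists on 6A was 25.7% for seedling and 35.1% for spikelet MHSs, 27.9% and 36.4% on 6B, and 25.7% and 36.3% on 6D, again in the opposite order. With a reciprocal overlap of 50% it was 47.5% and 45.0% on 6A, 48.8% and 45.7% on 6B, and 47.1% and 45.2% on 6D. The outermost 20% at either end held 61.3% and 63.9% on 6A, 56.2% and 56.2% on 6B, and 59.2% and 60.0% on 6D. With q up to 1e-05 the ends held 34.0% of the seedling MHSs on 6B and 35.3% on 6D, and the densest window had 58 seedling MHSs on 6A, 54 in either list on 6B and 69 in the seedling on 6D. Bins of 20 Mb gave a lowest spikelet density of 4.75 per Mb on 6B.

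In the low-density interval, q up to 1e-05 in both lists gave a tissue-only share of 29.8% in the seedling and 27.4% in the spikelet on 6A, 27.7% and 32.4% on 6B, and 31.6% in the seedling on 6D. With that q in the counted list alone, it was 22.9% and 21.2% on 6A, 20.8% and 24.3% on 6B, and 24.7% and 23.0% on 6D. In the first 10 Mb of 6B the shares were 48.0% and 51.6% with the threshold in both lists, and 41.9% and 38.5% with it in the counted list. The ratio of seedling to spikelet MHSs, which was above 1 in these regions, became 1.00 in the low-density interval of 6A and turned to 0.920 in that of 6B, 0.941 in that of 6D and 0.932 in the first 10 Mb of 6B with q up to 1e-05. The cause of these moves was not tested.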
